A study of Drosophila melanogaster with 18 samples.

Results

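The 10 genes described here encode the enzymes and the secreted protein that turn tyrosine into the pigments and crosslinks of insect cuticle: ple, Pu, Ddc, amd, b, e, t, AANAT1, stw and y. They were listed by name for their role in tyrosine and catecholamine metabolism, not by their values, though earlier results of these data were known when they were chosen. They are 10 of the 13731 genes with values in the deposited tables, and all 10 passed the filter on low counts, so each is among the 9672 genes tested.

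Tyrosine is hydroxylated to DOPA, and DOPA is decarboxylated to dopamine. Dopamine can be linked to beta-alanine or acetylated, and the catechols are oxidised in the cuticle to quinones that crosslink proteins or polymerise into melanin. In flies, the balance between the branches sets whether cuticle becomes black, brown, tan or colourless, and the adult wing hardens and colours late in pupal life and after emergence.

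Poly(A) RNA of dissected Drosophila melanogaster pupal wings was sequenced at 24 h and 44 h after puparium formation, with at least 40 wings pooled for each library. Control flies carried rn-Gal4 alone, E93RNAi flies carried rn-Gal4 with UAS-E93RNAi, and E93RNAi+brRNAi flies carried rn-Gal4 with UAS-brRNAi and UAS-E93RNAi. The driver rn-Gal4, which follows the gene rotund and so acts in a part of the wing, was thus present in every group, and stocks were kept at 25 °C. Each of the 6 groups had 3 libraries. No group with UAS-brRNAi alone was analysed here, and the labels give no visible markers of the stocks. Separate crosses or days are not named for the libraries within a group, so p-values reflect only how these libraries vary among themselves, which may be technical. Both RNAi groups were compared with the same control libraries.

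E93 (encoded by Eip93F) and broad (br) are transcription factors of the ecdysone cascade, and their transcripts served as a check on the labels. In the order control, E93RNAi, E93RNAi+brRNAi, Eip93F averaged 2077, 2066 and 2369 CPM at 24 h and 1285, 1156 and 867 CPM at 44 h. Its level in E93RNAi did not differ from control past the threshold at either time, so groups are named by their labels. In the same order br averaged 14.8, 95.1 and 17.96 CPM at 24 h and 1.70, 50.2 and 7.63 CPM at 44 h. At 44 h br was thus lower in E93RNAi+brRNAi than in E93RNAi wings but above control, by 2.14 ± 0.26 on the log2 scale (adjusted p = 8.32e-07). Dcr-2 averaged 237, 5549 and 141 CPM at 24 h and 63.0, 2202 and 52.4 CPM at 44 h. E93RNAi wings therefore differed in Dcr-2 from both other groups, and in every comparison of E93RNAi with control or with E93RNAi+brRNAi this cannot be told apart from the labelled transgenes. The 6 wing markers (nub, vg, ap, sd, bs and rn) were each above 1 CPM in every group. CPM here is the count over a library total scaled by TMM, expressed as the usual rate, and library totals ran from 17627937 to 22940404 counts.

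Most of the genes were higher in control wings at 44 h than at 24 h, from 1.34-fold for amd to 291-fold for e. Both RNAi groups departed from control upward for some genes and downward for others. In control wings, 9 of the 10 genes differed between 44 h and 24 h (adjusted p under 0.05, as for all calls here), against 75.3% of all genes tested. Of these, 8 were higher at 44 h, against 37.1% of all genes, and 1, Ddc, was lower, against 38.1%. In E93RNAi against control at 24 h, 7 of 10 passed (43.9% of all genes), of which 5 were higher (21.7%) and 2 lower (22.3%). At 44 h, 9 of 10 passed (39.6%), of which 5 were higher (20.6%) and 4 lower (18.9%). Higher at both times were ple, t and y, and lower at both were stw and AANAT1, while e and Pu were higher at 24 h and lower at 44 h.

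In E93RNAi+brRNAi against control at 24 h, 5 of 10 passed (30.5% of all genes), all of them higher (14.7%) and none lower (15.8%), namely y, e, t, ple and Pu. At 44 h, 9 of 10 passed (45.6%), of which 6 were higher (23.0%) and 3 lower (22.6%). In E93RNAi+brRNAi against E93RNAi at 24 h, 8 of 10 passed (41.2%), with 6 higher (20.2%) and 2 lower (21.1%). The same comparison at 44 h had 9 of 10 past the threshold (48.8%), with 6 higher (24.9%) and 3 lower (23.9%). At both times ple and t were lower, and y, e, Pu, stw and AANAT1 higher, in E93RNAi+brRNAi than in E93RNAi wings. The median log2 fold change of the 10 genes lay between 0.33 and 0.69 in these 6 genotype comparisons, beside medians of all genes between -0.01 and 0.01.

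**Figure D1:**
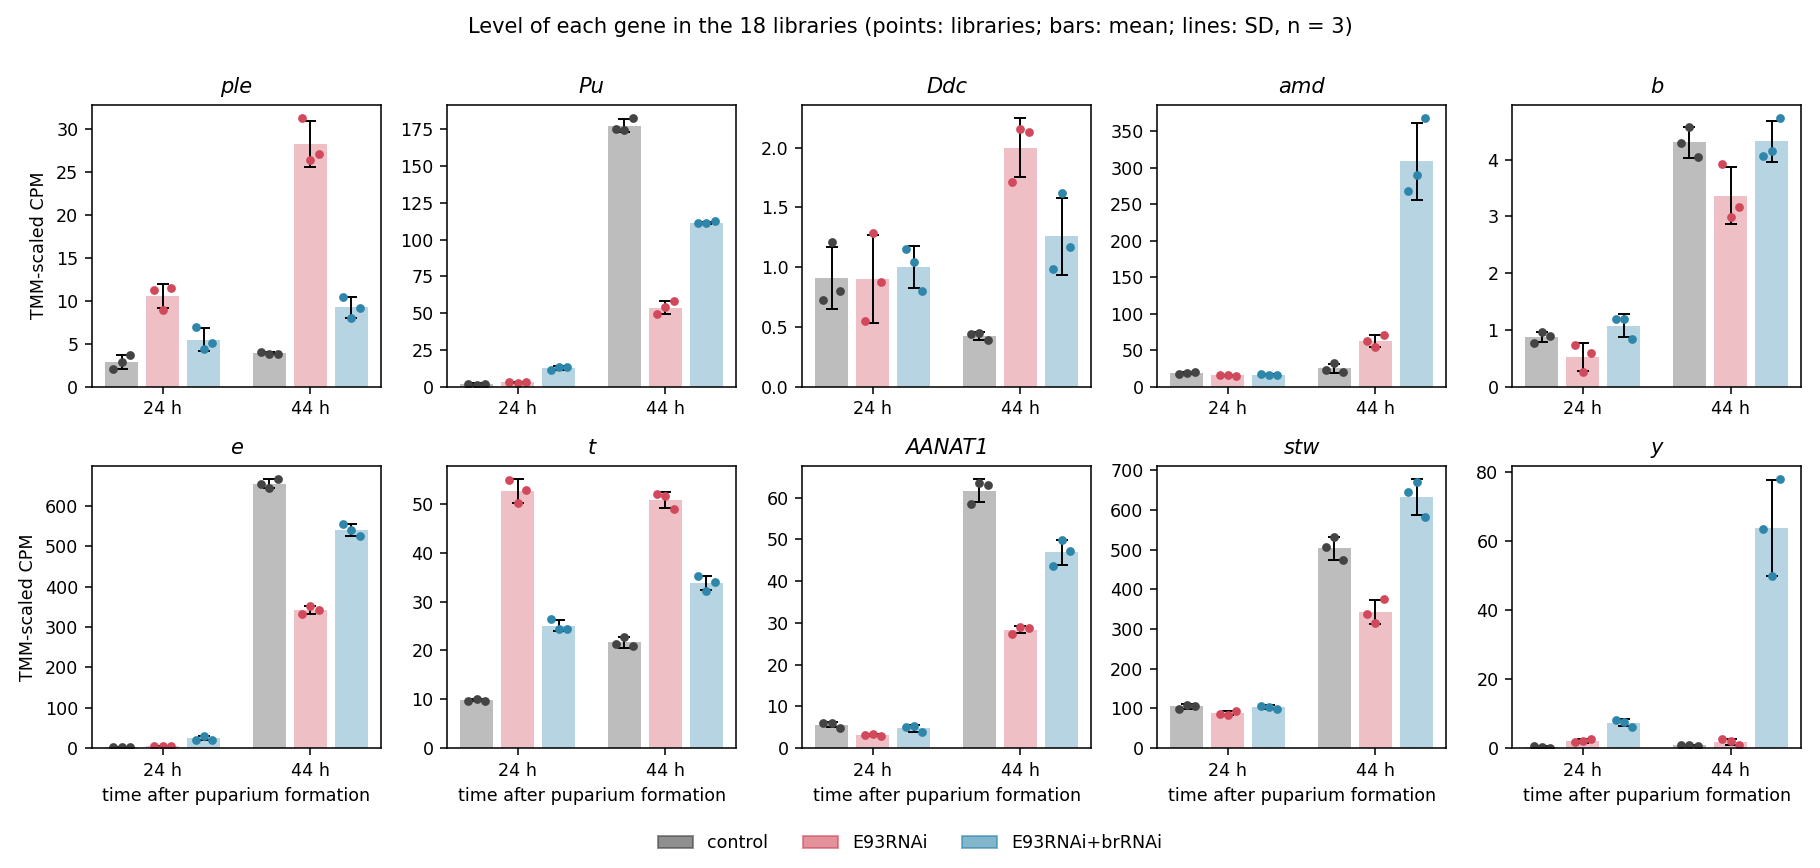
Level of each gene in TMM-scaled CPM (linear axes that start at 0 and differ between panels) by time after puparium formation, with a point for each library, bars for the mean and lines for the SD of 3 libraries. e and Pu are near 0 at 24 h and highest in control wings at 44 h, t and ple are highest in E93RNAi wings at both times, and y and amd are highest in E93RNAi+brRNAi wings at 44 h, at means of 63.7 and 309 CPM.

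The gene ple (FBgn0005626, chromosome 3L, 6713356 to 6719525, minus strand) encodes tyrosine hydroxylase, which makes DOPA from tyrosine. At 24 h its level was 2.07, 2.92 and 3.66 CPM in control wings, 11.2, 8.94 and 11.5 CPM in E93RNAi and 6.97, 4.36 and 5.09 CPM in E93RNAi+brRNAi. At 44 h it was 4.01, 3.84 and 3.82 CPM in control, 31.2, 26.4 and 27.0 CPM in E93RNAi and 10.5, 8.03 and 9.13 CPM in E93RNAi+brRNAi. Control, E93RNAi+brRNAi and E93RNAi stood in that order at both times, with no overlap between libraries. Relative to control, ple in E93RNAi was higher by 1.86 ± 0.18 (log2 fold change ± SE, adjusted p = 8.41e-08) at 24 h and by 2.86 ± 0.16 (8.99e-12) at 44 h, 7.24-fold. The effect was larger at 44 h than at 24 h by 1.00 ± 0.26 (adjusted p = 0.00428). From E93RNAi to E93RNAi+brRNAi, ple fell by 0.93 ± 0.16 at 24 h (adjusted p = 0.000106) and by 1.61 ± 0.14 at 44 h (1.08e-08). It still stayed above control in E93RNAi+brRNAi, by 0.92 ± 0.20 (adjusted p = 0.001) and 1.24 ± 0.18 (1.02e-05). In control wings the difference between the times, 0.42 ± 0.21, did not pass (adjusted p = 0.0804), but it did without control 24 h replicate 3, at 0.64, and with DESeq2, at 0.45 (0.0446).

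Pu (FBgn0003162, chromosome 2R, 21175315 to 21182608, plus strand) encodes GTP cyclohydrolase I, the first enzyme in the synthesis of tetrahydrobiopterin, the cofactor of tyrosine hydroxylase. Its levels at 24 h were 2.07, 1.41 and 2.02 CPM in control, 2.92, 2.82 and 3.03 CPM in E93RNAi and 11.4, 13.5 and 13.6 CPM in E93RNAi+brRNAi. At 44 h they were 175, 175 and 183 CPM in control, 49.1, 54.0 and 58.4 CPM in E93RNAi and 111, 111 and 112 CPM in E93RNAi+brRNAi. Control wings were thus lowest at 24 h and highest at 44 h, with no overlap between any groups. Pu was 96.5-fold higher at 44 h than at 24 h in control, 18.4-fold in E93RNAi and 8.71-fold in E93RNAi+brRNAi wings. Against control, it was higher by 0.67 ± 0.16 in E93RNAi (adjusted p = 0.00233) and by 2.80 ± 0.12 in E93RNAi+brRNAi (6.16e-13) at 24 h. At 44 h it fell by 1.72 ± 0.06 in E93RNAi (adjusted p = 1.10e-14) and by 0.67 ± 0.06 in E93RNAi+brRNAi (1.04e-08). The cofactor enzyme and the hydroxylase it serves therefore stood in different orders across the groups at 44 h, ple highest and Pu lowest in E93RNAi wings.

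Ddc (FBgn0000422, chromosome 2L, 19116483 to 19120306, minus strand) encodes dopa decarboxylase, which makes dopamine from DOPA. It had 7 to 46 counts in a library, so counting error is large. At 24 h the levels were 0.723, 1.21 and 0.798 CPM in control, 0.548, 1.28 and 0.873 CPM in E93RNAi and 1.15, 1.04 and 0.804 CPM in E93RNAi+brRNAi, and all groups overlapped. By 44 h the values were 0.439, 0.448 and 0.388 CPM in control, 1.72, 2.15 and 2.13 CPM in E93RNAi and 0.986, 1.62 and 1.17 CPM in E93RNAi+brRNAi, with no overlap. Ddc in E93RNAi was higher than in control at 44 h by 2.22 ± 0.33 (adjusted p = 1.19e-05), and in E93RNAi+brRNAi by 1.55 ± 0.36 (0.00131). At 24 h the 95% intervals of the log2 difference from control ran from -0.65 to 0.65 for E93RNAi and from -0.49 to 0.77 for E93RNAi+brRNAi. The fall from E93RNAi to E93RNAi+brRNAi at 44 h, by 0.67 ± 0.27, only just passed (adjusted p = 0.0493), and it was lost with RLE size factors (0.0506), without the filter (0.0749), with DESeq2 (0.102) and without most single libraries. Ddc was lower at 44 h than at 24 h in control, by -1.08 ± 0.37 on the log2 scale (adjusted p = 0.0123). That call was lost without control 24 h replicate 2 (-0.83). Ddc shares 88 exon bases with CG10561 on the opposite strand, which had 1951 counts over all libraries beside 387 for Ddc, and no source used here states whether counting used the strand.

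The neighbouring gene amd (FBgn0000075, chromosome 2L, 19110154 to 19114110, plus strand) lies 2372 bases from Ddc and encodes a related enzyme that acts on DOPA and is needed for soft cuticle. At 24 h its levels were 17.6, 18.8 and 20.2 CPM in control, 15.7, 15.9 and 14.9 CPM in E93RNAi and 17.4, 16.6 and 15.4 CPM in E93RNAi+brRNAi. The 44 h libraries had 22.7, 32.5 and 20.2 CPM in control, 62.6, 55.1 and 71.0 CPM in E93RNAi and 268, 290.2 and 368 CPM in E93RNAi+brRNAi. The groups were close together at 24 h and well apart at 44 h. Against control at 44 h, amd was higher by 1.31 ± 0.14 in E93RNAi (adjusted p = 1.04e-07) and by 3.61 ± 0.14, 12.2-fold, in E93RNAi+brRNAi (9.68e-15). From E93RNAi to E93RNAi+brRNAi, groups that also differed in Dcr-2, amd rose further by 2.30 ± 0.12 (adjusted p = 5.92e-12), the reverse of the fall in ple and t. At 24 h neither RNAi group differed from control past the threshold, with adjusted p of 0.151 and 0.378, although a fit of only the 2 groups compared called the first at -0.29 (0.0144). In control wings amd was higher at 44 h by 0.42 ± 0.15 (adjusted p = 0.0169), but the libraries overlapped. Without control 44 h replicate 2 that value was 0.19, without control 24 h replicate 1 it was 0.37, and with library totals alone 0.21, and none of these passed.

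The gene b (black, FBgn0000153, chromosome 2L, 13821248 to 13823979, plus strand) encodes an aspartate decarboxylase that supplies beta-alanine. Its levels at 24 h were 0.774, 0.958 and 0.891 CPM in control, 0.731, 0.257 and 0.597 CPM in E93RNAi and 1.20, 1.18 and 0.849 CPM in E93RNAi+brRNAi. At 44 h they were 4.28, 4.58 and 4.04 CPM in control, 3.93, 2.996 and 3.17 CPM in E93RNAi and 4.07, 4.16 and 4.73 CPM in E93RNAi+brRNAi. The rise with time passed in each genotype, by 2.29 ± 0.22 in control and 2.67 ± 0.25 in E93RNAi, and with a 95% interval from 1.56 to 2.44 in E93RNAi+brRNAi. Neither RNAi group differed from control past the threshold at either time. The 95% intervals of those log2 differences ran from -1.38 to -0.09 and from -0.73 to 0.01 for E93RNAi at 24 h and 44 h, and from -0.26 to 0.86 and from -0.36 to 0.37 for E93RNAi+brRNAi. The first of these, -0.74 with an adjusted p of 0.0602, was called without E93RNAi 24 h replicate 1 (-1.03). Between the RNAi groups at 24 h, b was higher in E93RNAi+brRNAi by 1.03 ± 0.29 (adjusted p = 0.00769), a call lost without E93RNAi 24 h replicate 2 (0.69).

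The gene e (ebony, FBgn0000527, chromosome 3R, 21229839 to 21237177, minus strand) encodes the enzyme that joins beta-alanine to dopamine, which gives the precursor of tan cuticle. Its levels at 24 h were 2.22, 2.42 and 2.11 CPM in control, 4.43, 4.53 and 5.01 CPM in E93RNAi and 20.9, 29.9 and 20.8 CPM in E93RNAi+brRNAi. By 44 h the values were 656, 645 and 666 CPM in control, 333, 352 and 342 CPM in E93RNAi and 556, 539.9 and 525 CPM in E93RNAi+brRNAi. No 2 groups overlapped, and control was lowest at 24 h and highest at 44 h, as for Pu. The rise with time was 291-fold in control, 73.4-fold in E93RNAi and 22.7-fold in E93RNAi+brRNAi wings. Against control at 24 h, e was higher by 1.05 ± 0.18 in E93RNAi (adjusted p = 8.98e-05) and by 3.40 ± 0.14, 10.6-fold, in E93RNAi+brRNAi (2.10e-13). At 44 h it fell by 0.94 ± 0.08 in E93RNAi (adjusted p = 3.74e-09) and by 0.28 ± 0.08 in E93RNAi+brRNAi (0.00566).

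The gene t (tan, FBgn0086367, chromosome X, 9217655 to 9223257, minus strand) encodes the hydrolase that splits the ebony product back into dopamine and beta-alanine. At 24 h its levels were 9.65, 10.1 and 9.62 CPM in control, 55.1, 50.3 and 52.8 CPM in E93RNAi and 26.4, 24.4 and 24.5 CPM in E93RNAi+brRNAi. At 44 h they were 21.3, 22.8 and 20.8 CPM in control, 52.1, 51.7 and 49.1 CPM in E93RNAi and 35.2, 32.3 and 34.1 CPM in E93RNAi+brRNAi. E93RNAi was highest and control lowest at both times, and for E93RNAi wings the 95% interval of the log2 difference between 44 h and 24 h ran from -0.16 to 0.06. In E93RNAi, t was higher than in control by 2.43 ± 0.06 (adjusted p = 1.02e-16) at 24 h and by 1.23 ± 0.06 (4.76e-13) at 44 h. In E93RNAi+brRNAi, the values were 1.36 ± 0.07 (adjusted p = 3.04e-12) and 0.64 ± 0.06 (1.75e-08). The enzymes of the forward and the reverse step thus differed in direction at 44 h, where both RNAi groups had less e and more t than control.

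AANAT1 was deposited under the former identifier FBgn0019643, known from background and checked by gene length. The gene (speck in the annotation, chromosome 2R, 24139563 to 24157762, plus strand) encodes an acetyltransferase that makes N-acetyldopamine. Its levels at 24 h were 5.89, 5.95 and 4.83 CPM in control, 3.06, 3.34 and 2.80 CPM in E93RNAi and 4.90, 5.31 and 3.84 CPM in E93RNAi+brRNAi. The 44 h libraries had 58.4, 63.5 and 62.9 CPM in control, 27.3, 28.9 and 28.7 CPM in E93RNAi and 43.7, 49.8 and 47.1 CPM in E93RNAi+brRNAi. E93RNAi libraries were the lowest at both times, and E93RNAi+brRNAi lay between, overlapping control at 24 h. AANAT1 in E93RNAi fell below control by 0.85 ± 0.13 (adjusted p = 3.07e-05) at 24 h and by 1.12 ± 0.07 (9.01e-11) at 44 h. In E93RNAi+brRNAi it was higher than in E93RNAi by 0.61 ± 0.13 (adjusted p = 0.00111) and 0.73 ± 0.07 (8.73e-08). The rise with time was 11.1-fold in control, 9.21-fold in E93RNAi and 10.0-fold in E93RNAi+brRNAi, and the difference between the genotypes' rises did not pass in any of the 3 pairs, with 95% intervals of the log2 difference that lay between -0.59 and 0.44. AANAT1 shares 95 exon bases with CG42568 and DnaJ-60 on the opposite strand, which had 621 and 38 counts over all libraries beside 8360 for AANAT1.

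The gene stw (straw, also called laccase 2) was deposited under FBgn0259247, also known from background and checked by length. It lies on chromosome 2R, 5413744 to 5456095, plus strand, and encodes the oxidase that converts catechols to quinones in the cuticle. At 24 h the levels were 97.8, 109 and 107 CPM in control, 86.2, 84.0 and 93.5 CPM in E93RNAi and 107, 104 and 96.9 CPM in E93RNAi+brRNAi. By 44 h the values were 506, 531 and 473 CPM in control, 337, 316 and 375 CPM in E93RNAi and 645, 669 and 583 CPM in E93RNAi+brRNAi. E93RNAi was lowest at both times, and at 44 h E93RNAi+brRNAi lay above control with no overlap. Against control, stw fell by 0.25 ± 0.07 (adjusted p = 0.00814) and by 0.55 ± 0.07 (1.07e-06) in E93RNAi at 24 h and 44 h. In E93RNAi+brRNAi it was higher than control at 44 h by 0.33 ± 0.07 (adjusted p = 0.000476), and at 24 h the 95% interval of the log2 difference ran from -0.17 to 0.12. From E93RNAi to E93RNAi+brRNAi it rose by 0.88 ± 0.07 (adjusted p = 1.31e-09) at 44 h. The smaller rise at 24 h, 0.22 ± 0.07 (adjusted p = 0.017), was lost when replicate 1 or 2 of either group was left out, at 0.19 to 0.20.

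The gene y (yellow, FBgn0004034, chromosome X, 356509 to 361245, plus strand) encodes a secreted protein needed for black melanin. At 24 h the control libraries had 8, 5 and 0 counts, or 0.413, 0.252 and 0 CPM, where a count of 0 allows up to 3 counts or 0.150 CPM of the library total. E93RNAi libraries at 24 h had 1.60, 1.92 and 2.57 CPM, and E93RNAi+brRNAi libraries 8.20, 7.44 and 6.16 CPM. At 44 h the levels were 0.714, 0.797 and 0.609 CPM in control, 2.55, 1.92 and 0.922 CPM in E93RNAi and 63.4, 49.9 and 77.8 CPM in E93RNAi+brRNAi. Control, E93RNAi and E93RNAi+brRNAi stood in this order at both times, with no overlap between libraries. Against control, y in E93RNAi+brRNAi was higher by 5.04 ± 0.42 (adjusted p = 9.21e-09) at 24 h and by 6.48 ± 0.27 (3.90e-14) at 44 h, 89.0-fold. In E93RNAi it was higher by 3.20 ± 0.55 (adjusted p = 0.000103) at 24 h and by 1.34 ± 0.45 (0.0216) at 44 h. The sizes at 24 h rest on few control counts: without control 24 h replicate 1 they were 5.84 and 3.996 for E93RNAi+brRNAi and E93RNAi, and without replicate 3 they were 4.44 and 2.61, all past the threshold. The value for E93RNAi at 44 h was lost without control 44 h replicate 1 (1.35) or 3 (1.25) and without E93RNAi 44 h replicate 1 (1.04) or 2 (1.29). From E93RNAi to E93RNAi+brRNAi, groups that also differed in Dcr-2, y rose by 1.84 ± 0.26 (adjusted p = 1.25e-05) at 24 h and 5.13 ± 0.23 (3.35e-13) at 44 h. These rises differed between the times by 3.29 ± 0.39 (adjusted p = 1.65e-06). In control wings the higher level at 44 h, by 1.70 ± 0.72 (adjusted p = 0.0388), was 2.49 without control 24 h replicate 1, and it was lost without control 24 h replicate 3 (1.09), without 3 other control libraries (1.60 to 1.82) and with library totals alone (1.49).

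Copies of y, w (white, an eye pigment transporter) and v (vermilion, an eye pigment enzyme) are used as visible markers of transgenes in flies, so their levels are given beside y. The gene w averaged 318 CPM in control, 712 CPM in E93RNAi and 392 CPM in E93RNAi+brRNAi wings at 24 h, and 293, 635 and 419 CPM at 44 h. The gene v was at 0 in all 3 control libraries at 24 h and averaged 0.815 CPM in E93RNAi+brRNAi. At 44 h v averaged 0.740 CPM in control, 0.126 CPM in E93RNAi and 0.940 CPM in E93RNAi+brRNAi. Whether transgene copies had a part in the levels of y was not tested. The gene CG32816 lies within the span of y on the opposite strand, and the 2 share no exon bases.

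**Figure D2:**
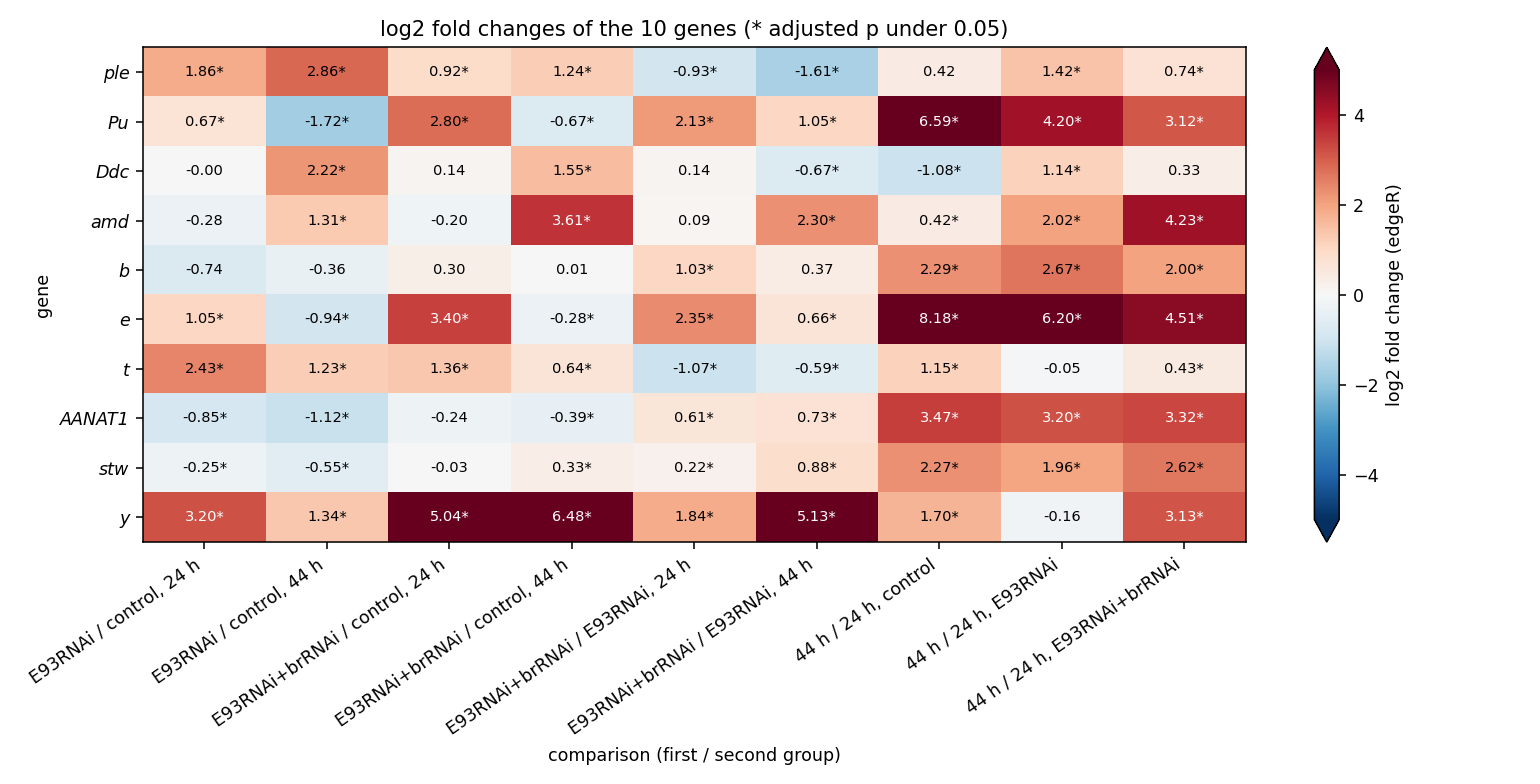
Fitted log2 fold changes of the 10 genes (rows) in the 9 comparisons between groups (columns, first group over second), with an asterisk where the adjusted p was under 0.05 and colours that saturate at 5 either way. The rows of e and Pu change colour from red at 24 h to blue at 44 h against control, and y reaches 6.48 in E93RNAi+brRNAi against control at 44 h.

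Whether a genotype's effect changed between 24 h and 44 h was tested as an interaction in the same fit. For E93RNAi against control, 7 of 10 genes passed (37.9% of all genes tested), namely ple, Ddc and amd with a higher log2 fold change at 44 h and Pu, e, t and stw with a lower one. The largest of these were Pu, whose log2 fold change moved by -2.39 ± 0.17 (adjusted p = 1.12e-09), and Ddc, whose value moved by 2.22 ± 0.46 (0.000741). The effect on e moved by -1.99 ± 0.19 (adjusted p = 8.03e-08), and that on amd by 1.60 ± 0.21 (4.46e-06). The shift of stw, -0.31 ± 0.10 (adjusted p = 0.0194), was lost with library totals alone (-0.22) and without control 24 h replicate 1 (-0.26) or E93RNAi 44 h replicate 2 (-0.25). The shift of y, -1.86 ± 0.80, did not pass (adjusted p = 0.0735) but passed with DESeq2 (-1.91), without the filter (-1.90) and with each of 4 single libraries left out (-2.65 to -1.87).

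For E93RNAi+brRNAi against control, 6 of 10 interactions passed (38.5% of all genes), those of amd, Ddc, stw, e, Pu and t. amd moved up between the times by 3.81 ± 0.20 (adjusted p = 6.38e-12), while e moved by -3.68 ± 0.16 (3.40e-13) and Pu by -3.47 ± 0.14 (7.18e-14). The shift of Ddc, 1.41 ± 0.47 (adjusted p = 0.023), was lost without control 24 h replicate 2 (1.16) or E93RNAi+brRNAi 44 h replicate 2 (1.19). Between the RNAi groups 7 of 10 passed (33.5%), with y at 3.29 and amd at 2.21 ± 0.20 (adjusted p = 3.53e-08). For ple the shift was -0.68 ± 0.22 (adjusted p = 0.0198), and it was lost without E93RNAi+brRNAi 24 h replicate 1 (-0.44) and without 3 others of the libraries compared (-0.58 to -0.57). The shift of y in E93RNAi+brRNAi against control, 1.43 ± 0.89 (adjusted p = 0.22), passed with DESeq2 (0.0303), and that of Ddc between the RNAi groups, -0.81 ± 0.40 (0.134), passed without E93RNAi 24 h replicate 2 (-1.16). The effects on b and AANAT1 did not differ past the threshold between the times in any of the 3 genotype pairs.

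**Figure D3:**
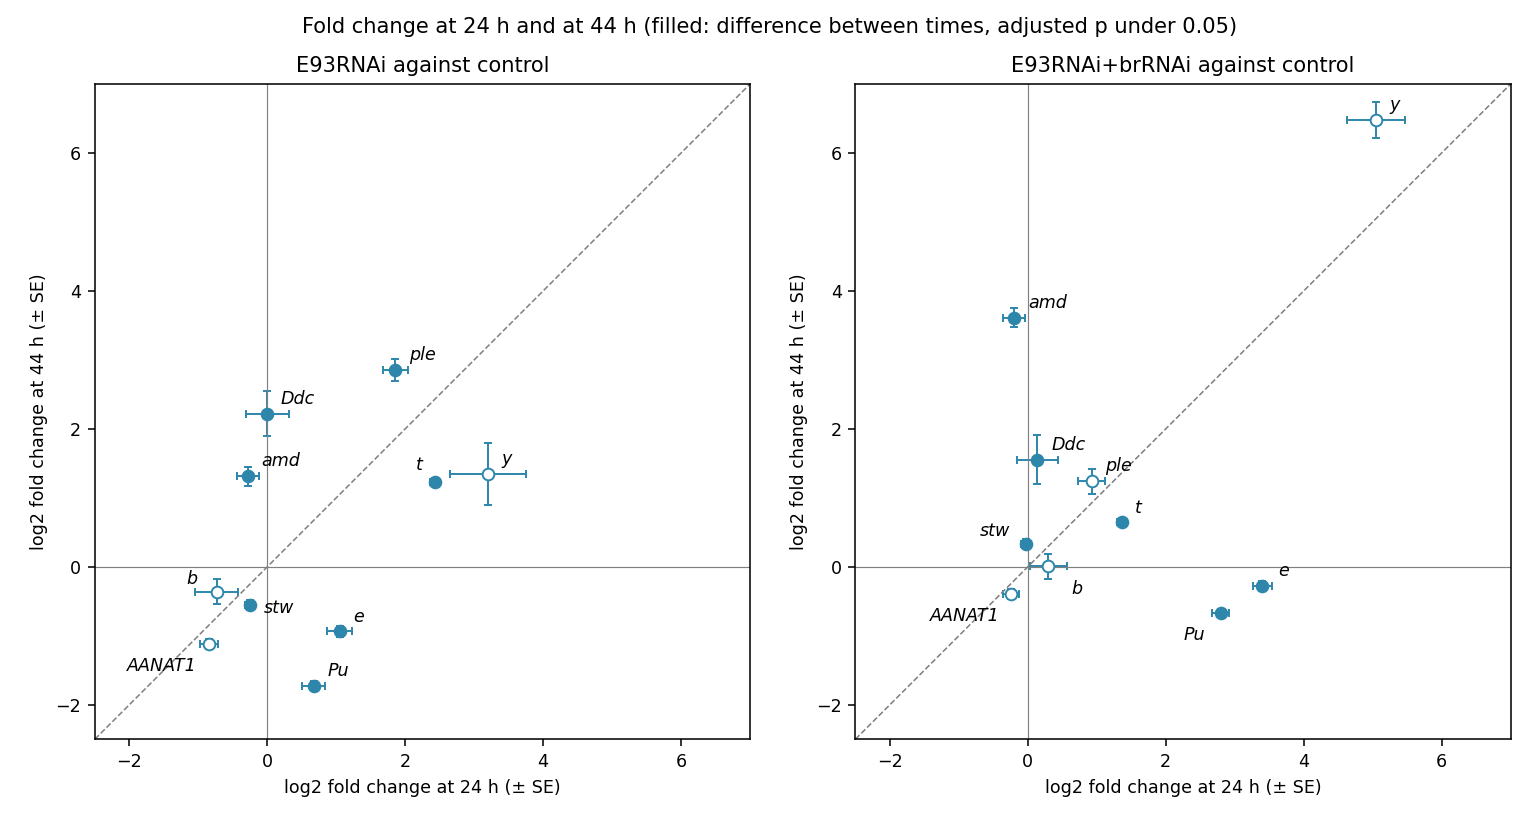
Log2 fold change against control at 44 h (vertical axis) plotted against that at 24 h (horizontal axis) for E93RNAi (left) and E93RNAi+brRNAi (right), with SE as lines, the dashed line marking equal effects and filled points those whose effects differed between the times (adjusted p under 0.05). e and Pu lie at the lower right in both panels, higher than control at 24 h and lower at 44 h, and amd lies near 0 at 24 h and at 1.31 and 3.61 at 44 h.

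Within the RNAi groups, 8 of 10 genes were different between the times in E93RNAi (74.5% of all genes), all of them higher at 44 h (38.1%) and none lower (36.4%). In E93RNAi+brRNAi 9 of 10 passed (75.8%), again all higher (37.8%) and none lower (38.0%). Not past the threshold were y and t in E93RNAi and Ddc in E93RNAi+brRNAi, though t passed with library totals alone (-0.17). Ordered by level, control wings at 44 h were the highest group for e, Pu and AANAT1, and control wings at 24 h were the lowest for e, t, ple, Pu and y. For e and Pu no neighbours in the order overlapped. Overlapping neighbours were E93RNAi at 24 h and 44 h for t and y, and E93RNAi at 24 h and E93RNAi+brRNAi at 44 h for ple. For stw and AANAT1 they were control and E93RNAi+brRNAi at 24 h, and for b these same genotypes at each of the 2 times. For amd the control groups at the 2 times overlapped, as did the 2 RNAi groups at 24 h, and for Ddc the 3 groups at 24 h overlapped along with E93RNAi+brRNAi at 44 h. In bulk wings, fewer cells that use a gene and less RNA in each cell cannot be told apart.

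Levels of different genes were compared on the deposited cRPKM scale, which divides by gene length. At 24 h stw was the highest of the 10 in control wings at 31.8 cRPKM, followed by amd at 11.6 cRPKM, while y was the lowest at 0.117 cRPKM. In E93RNAi wings at 24 h, t was in the first place at 29.8 cRPKM, beside 27.2 cRPKM for stw. In control wings at 44 h e was highest at 196 cRPKM, followed by stw at 132 cRPKM and Pu at 94.1 cRPKM, and Ddc was lowest at 0.210 cRPKM. In E93RNAi+brRNAi wings at 44 h stw, amd and e were close, at 158, 155 and 153 cRPKM, and y reached 28.1 cRPKM. The hydroxylase ple and the decarboxylase Ddc stayed below 10 cRPKM in every group, with highest means of 9.85 cRPKM and 1.06 cRPKM in E93RNAi wings at 44 h.

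**Figure D4:**
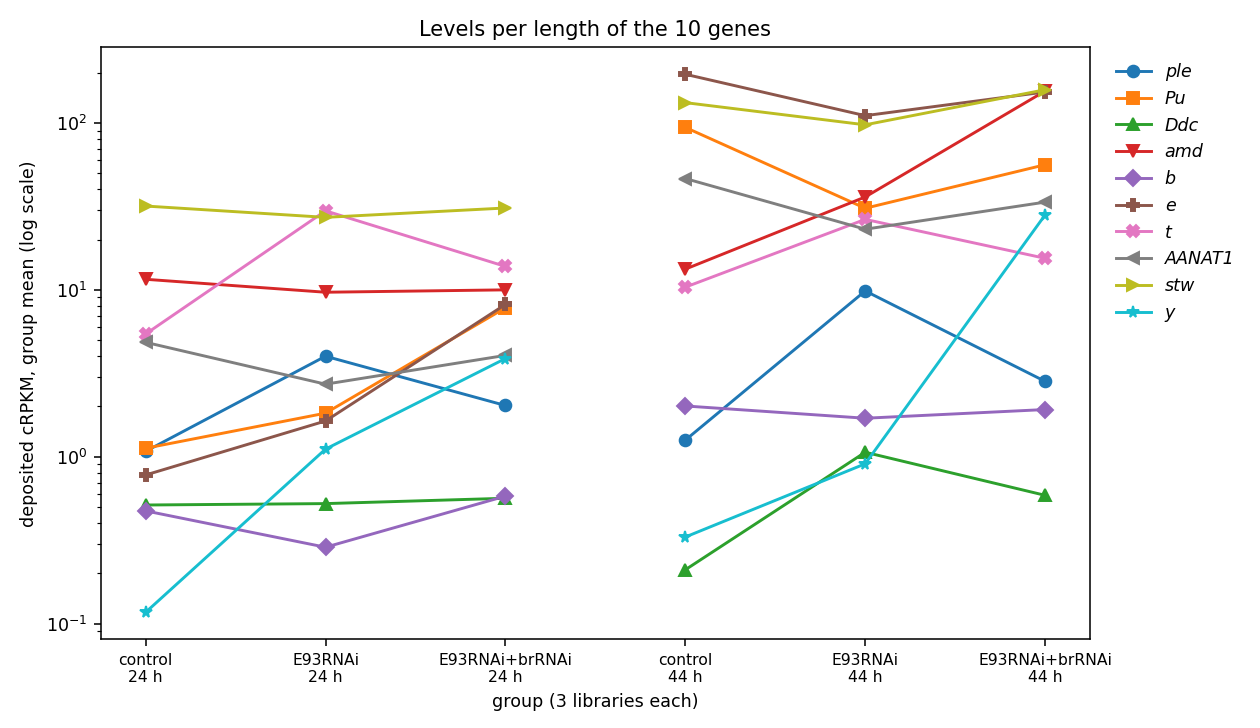
Mean deposited cRPKM of each gene (log scale) in the 6 groups of 3 libraries, with lines joining the genotypes within a time. In control and E93RNAi wings e rises from the lower part of the range at 24 h to the top at 44 h, at 196 cRPKM in control wings. In E93RNAi+brRNAi wings e goes from 8.17 cRPKM to 153 cRPKM, below stw and amd at both times. Ddc stays at or below 1.06 cRPKM in every group.

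Other genes of the same chemistry were followed as fixed lists, and their calls are described as counts without the 10 genes. They are to be read beside the shares of all genes called in E93RNAi against control, 21.7% higher and 22.3% lower at 24 h, and 20.6% higher and 18.9% lower at 44 h. Of 6 other genes for tyrosine hydroxylation and its pterin cofactor (pr, Sptr, Dhpr, Pcd, Hn and Catsup), 1 was higher and 2 lower in E93RNAi than in control at 24 h, and 2 higher and 3 lower at 44 h. The 1 that was higher at both times was Hn, which encodes phenylalanine hydroxylase. Hn averaged 3.16 ± 0.0899, 9.57 ± 1.29 and 2.28 ± 0.279 CPM (SD, n = 3) in control, E93RNAi and E93RNAi+brRNAi wings at 24 h, and 1.503 ± 0.169, 6.05 ± 0.850 and 1.96 ± 0.354 CPM at 44 h. In E93RNAi+brRNAi it was lower than in E93RNAi by -2.06 ± 0.15 (adjusted p = 1.11e-09) and -1.63 ± 0.17 (1.02e-07), as ple was. The other 5 cofactor genes moved by at most 1.25 on the log2 scale in control wings between the times, that of Sptr, beside 6.59 for Pu.

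Among 4 other genes tied to beta-alanine supply (Gad1, su(r), CRMP and pyd3), 1 was higher and 1 lower in E93RNAi than in control at 24 h, and 0 and 1 at 44 h. CRMP, which encodes dihydropyrimidinase of the pyrimidine route to beta-alanine, was at 122 and 718 CPM in control wings at 24 h and 44 h. Against control it took the same directions as e and Pu, being higher by 0.24 ± 0.05 in E93RNAi (adjusted p = 0.000643) and 0.66 ± 0.05 in E93RNAi+brRNAi (1.43e-09) at 24 h, and at 44 h it fell by 0.47 ± 0.05 (6.56e-08) and 0.41 ± 0.05 (3.58e-07). Of 5 other phenol oxidases 2 were tested, Mco1 and PPO3. Mco1, a multicopper oxidase, averaged 28.6 CPM in control wings at 24 h and 1.78 CPM at 44 h, opposite in time to stw. None of the 6 AANAT1 relatives on the list passed the filter on low counts.

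Of 13 yellow paralogs on the list 10 were tested, and in E93RNAi+brRNAi against control at 44 h 6 were higher and 1 lower, where 23.0% of all genes were higher and 22.6% lower. In E93RNAi against control at 44 h 3 were higher and 4 lower, where the shares of all genes were 20.6% and 18.9%. The strongest was yellow-h, with 14.0 ± 1.75, 20.9 ± 2.92 and 137 ± 17.7 CPM (SD, n = 3) at 44 h in the order control, E93RNAi, E93RNAi+brRNAi. It was higher in E93RNAi+brRNAi than in control by 3.29 ± 0.12 (adjusted p = 2.88e-15). The next was yellow-b, higher by 2.30 ± 0.20 (adjusted p = 5.82e-09), from 1.51 to 7.41 CPM. yellow-d2 was higher by 0.94 ± 0.08 (adjusted p = 3.88e-09), from 62.5 to 120.0 CPM. At 24 h 1 paralog, yellow-d2, was higher in E93RNAi+brRNAi than in control, 2 were lower and 7 did not pass, where 14.7% of all genes were higher and 15.8% lower.

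**Figure D5:**
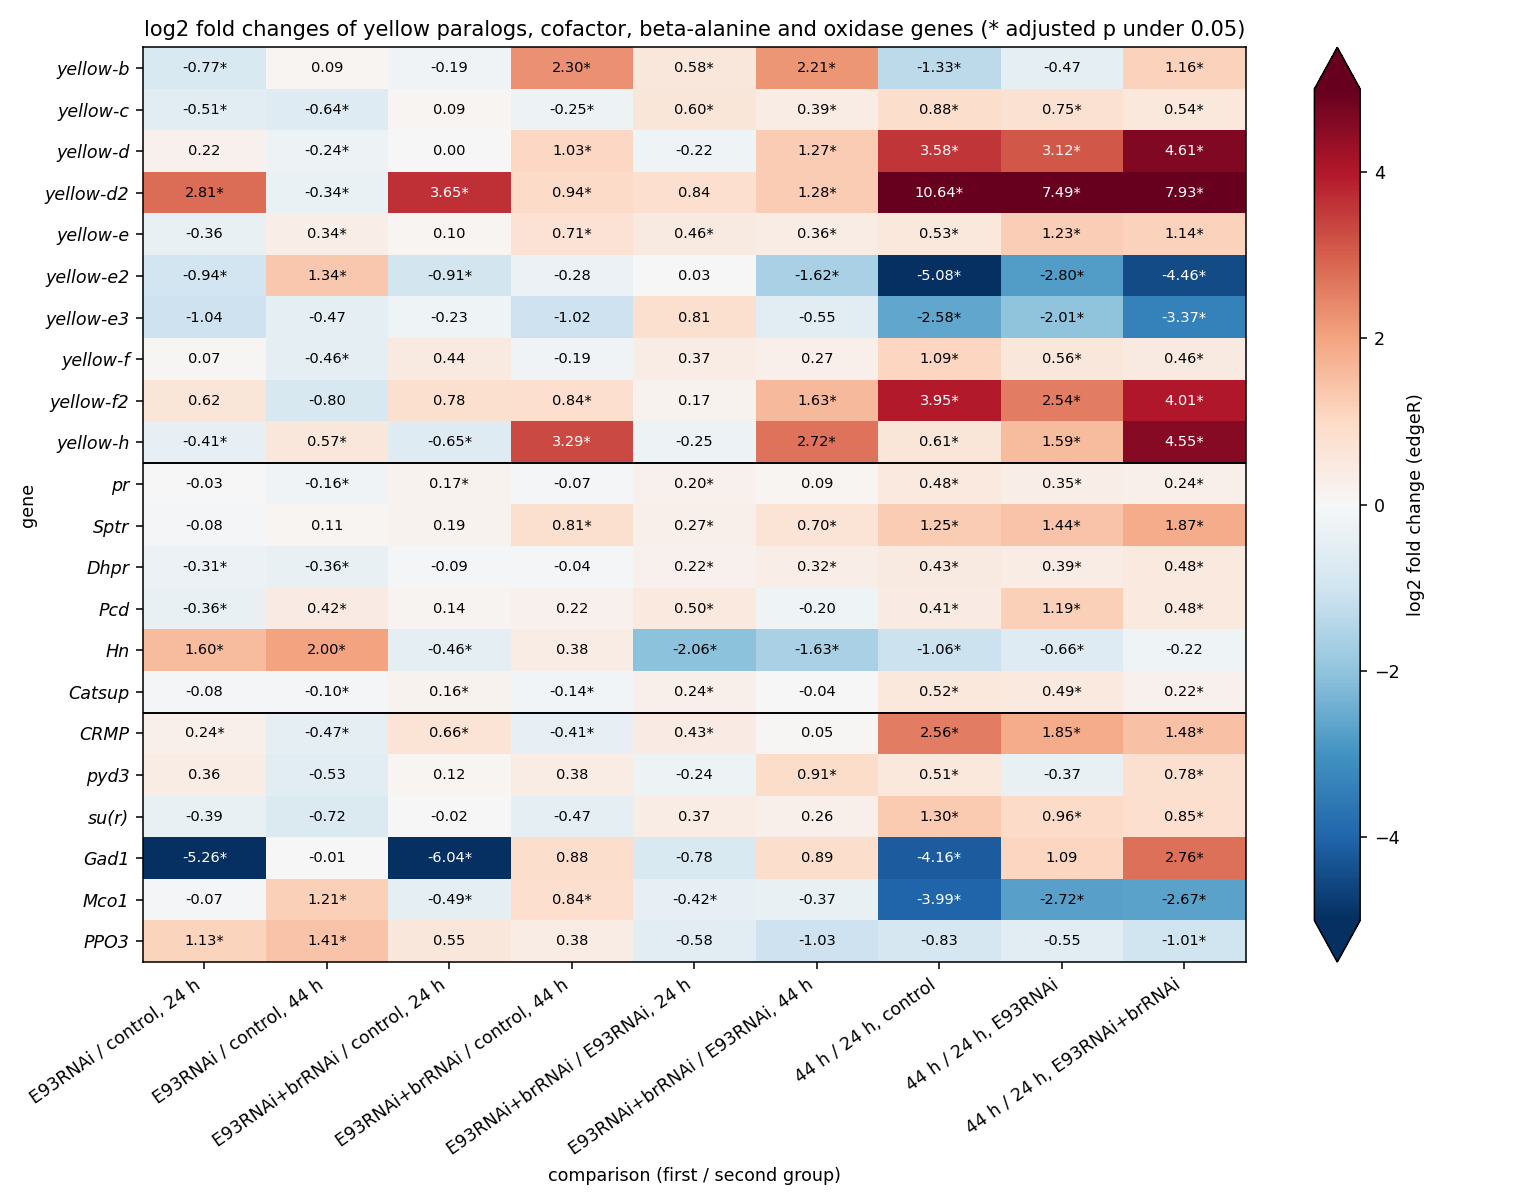
Fitted log2 fold changes of 10 yellow paralogs (upper block), 6 genes for tyrosine hydroxylation and its pterin cofactor (middle block) and 6 beta-alanine and phenol oxidase genes (lower block) in the 9 comparisons, with an asterisk where the adjusted p was under 0.05. In E93RNAi+brRNAi against control at 44 h yellow-h stands at 3.29 and yellow-b at 2.30, and Hn is higher in E93RNAi and lower in E93RNAi+brRNAi against E93RNAi at both times.

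Genes of blood cell melanization, tyrosine breakdown and the tanning hormone were followed as well, beside the same shares of all genes (21.7% higher and 22.3% lower at 24 h, 20.6% and 18.9% at 44 h). Of 7 melanization genes tested, 2 were higher and 3 lower in E93RNAi than in control at 24 h, and 1 and 6 at 44 h. The prophenoloxidases PPO1 and PPO2, which define crystal cells of the blood, were at or below 0.133 CPM on average in every group. The summed level of the 8 blood cell markers at 24 h was 13.1 to 15.5 CPM in control, 17.8 to 21.5 CPM in E93RNAi and 17.8 to 20.1 CPM in E93RNAi+brRNAi libraries. At 44 h it was 30.1 to 31.6 CPM, 22.2 to 23.7 CPM and 21.0 to 21.3 CPM in the same order, so the sums of both RNAi groups lay above control at 24 h and below it at 44 h, as for e and Pu. Singly, of 5 of these markers tested, 2 were higher and 0 lower in E93RNAi than in control at 24 h, and 0 and 2 at 44 h. In E93RNAi+brRNAi against control, 3 were higher and 0 lower at 24 h (14.7% and 15.8% of all genes). At 44 h these counts were 0 and 2 (23.0% and 22.6%). The sums of the RNAi groups overlapped at 24 h, where e and Pu were higher in E93RNAi+brRNAi than in E93RNAi. At 44 h the sum was lowest in E93RNAi+brRNAi, where e and Pu were again higher than in E93RNAi. The part of blood cells in the levels of e and Pu was not tested. Of 4 tyrosine breakdown genes tested, 1 was higher in E93RNAi than in control at 24 h and 1 lower at 44 h. Of 7 tanning hormone genes tested, 1 was higher and 4 lower in E93RNAi at 24 h, and 2 higher and 0 lower at 44 h. The 1 that was higher at both times was rk, the receptor of the tanning hormone bursicon, with 1.37, 2.82 and 0.942 CPM at 24 h and 0.262, 1.84 and 1.45 CPM at 44 h, in the order control, E93RNAi, E93RNAi+brRNAi.

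Neurons also use ple, Ddc and Pu to make dopamine, and glia and the eye use e, t and b, so markers of other cells are given beside these genes. The summed level of 7 neuron markers at 24 h was 83.0 to 93.6 CPM in control, 78.5 to 96.5 CPM in E93RNAi and 63.5 to 74.4 CPM in E93RNAi+brRNAi libraries. By 44 h the sums were 129 to 138 CPM, 124 to 141 CPM and 93.7 to 120.2 CPM in that order. The sums of E93RNAi overlapped control at both times, and those of E93RNAi+brRNAi lay below control. Singly, 1 of the 7 was higher and 5 were lower in E93RNAi than in control at 24 h, and 1 and 0 at 44 h. The dopamine transporter DAT averaged 1.23 and 1.66 CPM in control and E93RNAi wings at 24 h and 7.24 and 7.05 CPM at 44 h. The summed level of 6 sensory organ markers was 145 to 153 CPM in control, 181 to 197 CPM in E93RNAi and 135 to 139 CPM in E93RNAi+brRNAi libraries at 24 h. At 44 h that sum was 74.1 to 78.6 CPM, 127 to 134 CPM and 75.5 to 81.8 CPM, so it was highest in E93RNAi at both times, as ple and t were. The part of sensory organ cells in the levels of ple and t was not tested. The part of neurons in the levels of ple, Ddc and Pu was not tested either.

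The summed level of 5 glia markers at 24 h was 96.5 to 100.2 CPM in control, 103 to 113 CPM in E93RNAi and 95.4 to 102 CPM in E93RNAi+brRNAi libraries. The 44 h sums were 158 to 161 CPM, 129.8 to 135 CPM and 155 to 172 CPM, lowest in E93RNAi with no overlap, as for e. Of the 4 glia markers tested, 1 was higher and 3 were lower in E93RNAi than in control at 44 h. Of the muscle markers, all 7 were higher in E93RNAi at 24 h, with a median log2 fold change of 2.87, and all 7 were lower at 44 h, with a median of -1.40. Their summed level averaged 27.4, 100.1 and 27.2 CPM at 24 h and 184, 54.6 and 211 CPM at 44 h, in the order control, E93RNAi, E93RNAi+brRNAi. In E93RNAi wings these markers thus stood above control at 24 h and below it at 44 h, as e and Pu did. In E93RNAi+brRNAi wings at 24 h their sum of 26.7 to 28.2 CPM overlapped the 25.95 to 28.9 CPM of control, where e and Pu were higher than in control. The summed level of 5 fat body markers at 24 h was 476 to 543 CPM in control, 616 to 644 CPM in E93RNAi and 479 to 508 CPM in E93RNAi+brRNAi libraries. The 44 h sums were 309 to 409.5 CPM, 283 to 322 CPM and 386 to 432 CPM, where E93RNAi and control overlapped. At 24 h, 5 trachea markers summed to 980 to 1031 CPM in control and 890 to 1038 CPM in E93RNAi libraries. In E93RNAi+brRNAi libraries they summed to 920 to 982 CPM, and all groups overlapped control. Their 44 h sums were 502 to 516 CPM, 634 to 665 CPM and 597 to 657 CPM in the same order, so both RNAi groups lay above control. The part of glia, muscle, fat body and trachea in the levels of the 10 genes was not tested.

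Likeness of pattern was described by Pearson correlation of log2 CPM over the 18 libraries, among genes with a mean of at least 5 CPM, the libraries sharing the 6 groups and the 2 times. The closest named gene to e was Cad89D (0.998) and to Pu CG33178 (0.994), and the closest to stw was Ets98B (0.997). For AANAT1 it was CG9743 (0.997), for amd AMPdeam (0.992), for b CG4962 (0.984) and for ple MFS16 (0.980). The genes with less close partners were t, with pes at 0.956, y, with Arc1 at 0.915, and Ddc, with CG4822 at 0.870.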

How the data were processed

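The authors deposited, for each library, whole-number read counts per gene without normalization, and cRPKM, an RPKM whose values equal those counts over library total and gene length. The build is dm6, per the submitters' processing notes. Which aligner and counter were used, and whether by strand, is not given in the sources used here. Coordinates are from the Ensembl annotation of BDGP6. Of 13731 identifiers with values, 13511 matched it and 220 did not. Among the latter, stw, AANAT1 and br carry former FlyBase identifiers, known from background. Each had the implied length of its transcript less 49 bases, and stw and AANAT1 were each the only unlisted coding gene of that length.

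Counts were scaled by TMM, filtered with filterByExpr and tested in edgeR 4.0.16 (R 4.3.3) by its quasi-likelihood test, with the 6 group means fitted to the 18 libraries together and p-values adjusted by Benjamini-Hochberg over 9672 genes. Every adjusted p is from this fit unless another tool is named. Genes named beside the 10 were those of fixed lists with the smallest adjusted p, those a list's description needed, genes that overlap a member, and the closest by correlation. Floors cover counting error only. No replicate pair agreed within sampling noise. On simulated counts for E93RNAi against control at 24 h (9672 genes), 100 of 100 genes changed 2-fold and 95 of 100 changed 1.5-fold were called, with 4 false calls. The changed genes were drawn only from those at 5 CPM or more in control wings at 24 h. In those wings y, b, Ddc, Pu, e and ple lay below that level, so the rates do not cover them. The alternatives were RLE size factors, library totals alone, no filter, DESeq2 1.42.0, only the groups compared, a replicate block and each library left out. The genes and lists were chosen with earlier results of these data known.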

Additional observations from a re-analysis of the deposited data

Results flagged for a closer look

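Effects of genotype that differed between 24 h and 44 h, by the interaction test in edgeR, were found for 8 of the 10 genes, as 20 values of 30 tested. Each value is the log2 fold change at 44 h less that at 24 h, with an adjusted p under 0.05 over all genes. In the order given below, 37.9%, 38.5% and 33.5% of all genes tested passed. How many of all genes passed in any of these interactions was not counted.

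For E93RNAi against control, the values were 1.00 for ple, 2.22 for Ddc and 1.60 for amd, which moved up. They were -2.39 for Pu, -1.99 for e, -1.19 for t and -0.31 for stw, which moved down. For E93RNAi+brRNAi against control, they were 3.81 for amd, 1.41 for Ddc and 0.36 for stw, and -3.68 for e, -3.47 for Pu and -0.72 for t. For E93RNAi+brRNAi against E93RNAi, they were 3.29 for y, 2.21 for amd, 0.66 for stw and 0.48 for t, and -1.69 for e, -1.08 for Pu and -0.68 for ple. The 3 sets of values share libraries and are not independent of each other.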

How the results depend on the processing

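The 24 alternatives were 6 other settings and 18 fits that each left out 1 library. Every count of genes called among the 10, and over all genes, stayed within 1.5 times its value. Single calls were lost in 6 cases under the other settings and in 36 with a library left out, and gained in 6 and 7. They are given beside their results, where not every library left out is named. No value that changed sign was past the threshold in the fit reported. Ddc in E93RNAi against control at 24 h went from -0.00 to 0.0082 with RLE size factors, 0.022 with library totals alone, 0.028 without the filter and 0.0052 with DESeq2, and from -0.35 to 0.26 with a library left out. b in E93RNAi+brRNAi against control at 44 h was -0.068 with library totals alone and -0.062 to 0.061 with a library left out. AANAT1 in the interaction of the RNAi groups was -0.030 with library totals alone. With a library left out, stw in E93RNAi+brRNAi against control at 24 h ran from -0.070 to 0.020, Ddc between the RNAi groups at 24 h from -0.12 to 0.49, and y between the times in E93RNAi from -0.48 to 0.11. Library totals alone moved the median of all genes by up to -0.27, between the times in E93RNAi+brRNAi.

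The replicate numbers name no shared source, and same-numbered libraries did not deviate together, with r from -0.12 to 0.088 over 27 pairs. Only 1 of 18 libraries correlated best with its own number. With a replicate block, 7 and 9 of the 10 genes were called in E93RNAi against control at 24 h and 44 h, as without it, and the count was also the same in the other 10 of 12 comparisons. cRPKM means in 23 of 60 cases moved by more than 1 SD when TMM-scaled CPM over the implied length was used. At 12 to 30 counts a library at 24 h, differences in Ddc at that time within the intervals given were not detectable.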

Other observations

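Hr3, an ecdysone-induced nuclear receptor on the list of regulators of tanning genes, moved between groups in the same directions as e and Pu against control. It averaged 1.45 ± 0.345, 6.24 ± 0.364 and 61.9 ± 21.2 CPM (SD, n = 3) at 24 h in control, E93RNAi and E93RNAi+brRNAi, and 2204 ± 121, 1476 ± 47.9 and 1195 ± 200 CPM at 44 h. In E93RNAi+brRNAi against control it was higher by 5.42 ± 0.25 (adjusted p = 1.12e-12) at 24 h and fell by 0.88 ± 0.14 (3.24e-05) at 44 h. Between the RNAi groups at 44 h, the mean of Hr3 was lower in E93RNAi+brRNAi, whereas e and Pu were higher there. Of the 12 genes on that list, 4 were higher and 0 lower in E93RNAi than in control at 24 h, and 3 higher and 4 lower at 44 h, where 21.7% and 22.3% of all genes were higher and lower at 24 h and 20.6% and 18.9% at 44 h. The E93RNAi+brRNAi 24 h replicate 2 library was the highest of its group for Hr3, at 86.1 CPM beside 52.6 and 46.9 CPM. It was also the highest for e, at 29.9 CPM beside 20.9 and 20.8 CPM, while for Pu it had 13.5 CPM beside 11.4 and 13.6 CPM. That is a single library, and the part of Hr3 in the levels of e and Pu was not tested.

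The paralogs yellow-e2 and yellow-d2 ran opposite ways in time. yellow-e2 averaged 17.0 CPM in control wings at 24 h and 0.496 CPM at 44 h, and in E93RNAi it averaged 8.86 and 1.28 CPM. Against control it thus fell by 0.94 ± 0.11 (adjusted p = 1.09e-06) in E93RNAi at 24 h and was higher by 1.34 ± 0.29 (0.000707) at 44 h. yellow-d2 was at 0 in 2 of 3 control libraries at 24 h and averaged 62.5 CPM at 44 h, and in E93RNAi+brRNAi it reached 120 CPM.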
